A study of Homo sapiens with 6 samples.

Results

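The general transcription factors and TAFs are the proteins that assemble with an RNA polymerase at the start of a gene. Their messages were examined in NALM6 cells (Nalm6 in the labels), an established human line of acute lymphoblastic leukemia of B cell precursors. The listed genes were 38 factors of RNA polymerase II and III without TFIIH, namely TBP, TBPL1, the TAFs, TFIIA, TFIIB, TFIIE, TFIIF, the TBP regulators BTAF1, DR1 and DRAP1, and TFIIIA, TFIIIB and TFIIIC. They were matched by gene symbol, and 36 of the 38 were found among the 57905 rows of counts, all 36 of which were among the 16622 genes with enough counts to be tested. TAF9 and TAF15 had no row under their symbol or a RefSeq synonym and are not analysed here.

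RNA-SEQ, which counts the sequenced fragments of RNA that map to each gene, was performed on 3 libraries of DMSO-treated cells and 3 libraries of cells given THZ1 at 500 nM, all collected at 24 h. THZ1 is a covalent inhibitor of CDK7, the kinase of TFIIH, and DMSO is its solvent. Both treatments used the same unmodified line, so 1 cell line stands for the disease, and the labels do not say whether the 3 libraries of a treatment came from separate cultures. The p-values therefore measure the spread between these libraries, which may be technical. The labels name no batch.

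The DMSO-treated libraries held 11015480 to 11164840 counts and the THZ1-treated libraries 7876402 to 8314306, and the matched factors took 0.253 to 0.262% and 0.245 to 0.246% of them. Each factor had 171 to 2478 counts in a DMSO-treated library and 34 to 3338 in a THZ1-treated one. Levels are given as CPM, counts divided by the scaled library size and set to a common total, and they describe a share of the library. In these bulk samples, fewer cells and less RNA per cell cannot be told apart. Of 10 B cell precursor markers, all 10 were tested, and their summed level was 3890 to 4050 CPM with DMSO and 2090 to 2170 CPM with THZ1. The sum of 3 myeloid markers was 3.80 to 4.51 and 10.1 to 12.2 CPM. Of these, CD14 rose (0.636 and 8.72 CPM on average), LYZ fell (2.48 and 1.39 CPM, adjusted p = 0.036) and MPO was not called (log2 fold change 0.16, adjusted p = 0.72). The 3 T cell markers summed to at most 0.969 CPM in any library, and both platelet markers were at 0 in every library. The part of these marker levels in the results on the transcription factors was not tested.

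RNA polymerase II cannot find a start site alone. TFIID, built of TBP and the TAFs, binds the core promoter, TFIIA and TFIIB hold and extend the complex, TFIIF brings in the polymerase, and TFIIE recruits TFIIH, whose CDK7 then phosphorylates the polymerase tail. RNA polymerase III, which makes tRNA and 5S rRNA, uses TFIIIA and TFIIIC to recognise its genes and TFIIIB, which also holds TBP, to recruit the polymerase.

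The upstream sequences of 3 of these genes are shown because they carry the extremes of the list. TAF13 had the highest log2 fold change and GTF2E1 the lowest, and TAF11, the histone fold partner of TAF13 in TFIID, was added after its values were seen because it moved the other way. The sequences are from RefSeq (GRCh38.p14), were each found exactly once in GRCh37, and are printed 5′ to 3′ on the strand of the gene up to the first annotated exon of its own protein-coding transcripts. The regions are chr1:109618635-109618875 (minus strand) for TAF13, chr6:34855849-34856069 (minus strand) for TAF11 and chr3:120461341-120461483 (plus strand) for GTF2E1. The TAF11 region lies within the annotated gene span, which reaches chr6:34856969, so it is upstream of the RefSeq start only. Capitals mark matches to 4 motifs, read on both strands: the TATA box read as TATAAA, the CCAAT box, the GC box read as GGGCGG, and an ETS motif read as CCGGAAG. They can overlap each other only at their edges.
TAF13: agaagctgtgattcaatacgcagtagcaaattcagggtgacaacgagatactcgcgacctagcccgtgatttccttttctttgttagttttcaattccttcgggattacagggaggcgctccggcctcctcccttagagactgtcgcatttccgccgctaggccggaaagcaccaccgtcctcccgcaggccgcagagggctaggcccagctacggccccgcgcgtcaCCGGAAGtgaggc
TAF11: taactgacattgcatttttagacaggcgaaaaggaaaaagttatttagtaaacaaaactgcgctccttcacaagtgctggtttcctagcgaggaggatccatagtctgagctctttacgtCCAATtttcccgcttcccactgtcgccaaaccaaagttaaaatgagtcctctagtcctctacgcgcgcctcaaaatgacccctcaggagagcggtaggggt
GTF2E1: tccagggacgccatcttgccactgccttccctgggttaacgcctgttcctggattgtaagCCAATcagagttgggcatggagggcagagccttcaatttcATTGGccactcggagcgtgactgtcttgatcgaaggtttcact
The single match upstream of TAF13 was the ETS motif 22 bases before the RefSeq start, and the single match upstream of TAF11 was a CCAAT box 130 bases before it. GTF2E1 held CCAAT boxes 190, 150 and 101 bases before its start, the last of which lies in an exon of another transcript and is not printed. The GTF2E1 region also lies across from the first exons of RABL3, which runs the other way.

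Over the 250 bases before the start, 33 of the 38 listed genes had an entry in the RefSeq table. A TATA box was found in 2 of the 33 (6.06%), against 9.23% of 15843 protein-coding genes. CCAAT boxes stood before 10 genes (30.3%, against 34.5%) and GC boxes before 18 (54.5%, against 56.0%). ETS motifs stood before 11 (33.3%, against 11.8%). By direction, a CCAAT box stood before 1 of the 12 genes with an entry that rose under THZ1 and 7 of the 16 that fell, and an ETS motif before 6 of the 12 and 3 of the 16. A GC box stood before 5 of the 12 and 9 of the 16, and a TATA box before 0 of the 12 and 1 of the 16. The shares among all genes that rose or fell were not computed. These matches describe letters in a window and are no evidence of binding.

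Expression of the general transcription factors after THZ1 differed from gene to gene rather than as 1 block. At an adjusted p-value below 0.05 (edgeR's quasi-likelihood test, adjusted over all 16622 genes), 13 of the 36 genes rose (36.1%), 18 fell (50.0%) and 5 were not called. Among all genes tested, 43.5% rose and 41.1% fell, so calls in both directions were common in these libraries. A log2 fold change of at least 1.5 was reached by 2 genes upward, TAF7 and TAF13 (5.56%, against 24.6% of all genes), and by 2 downward, GTF2A2 and GTF2E1 (5.56%, against 12.9%). The CPM of the treatments did not overlap for 32 of the 36 genes (88.9%), against 84.7% of all genes.

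The median log2 fold change of the 36 genes was −0.20, with quartiles at −1.02 and 0.59, beside a median of 0.03 and quartiles at −0.90 and 1.46 over all genes tested. Their SD was 1.05 against 2.33, so the transcription factors covered a narrower range than all genes. Only 12808 of the 16622 genes tested had 10 counts in every library, as all 36 genes did. The spread of genes matched by level was not computed, and the same limit holds for the shares past a log2 fold change of 1.5. Scaling moved all genes together: with upper quartile factors the median of all genes was 0.19 higher and with library sizes alone 0.25 lower. The median of the 36 genes lay 0.22 below that of all genes in these fits, a distance that scaling cannot change. It was −0.73 without a filter and −0.0357 when all 6 libraries needed 10 counts, where other genes enter the median of all.

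**Figure D1:**
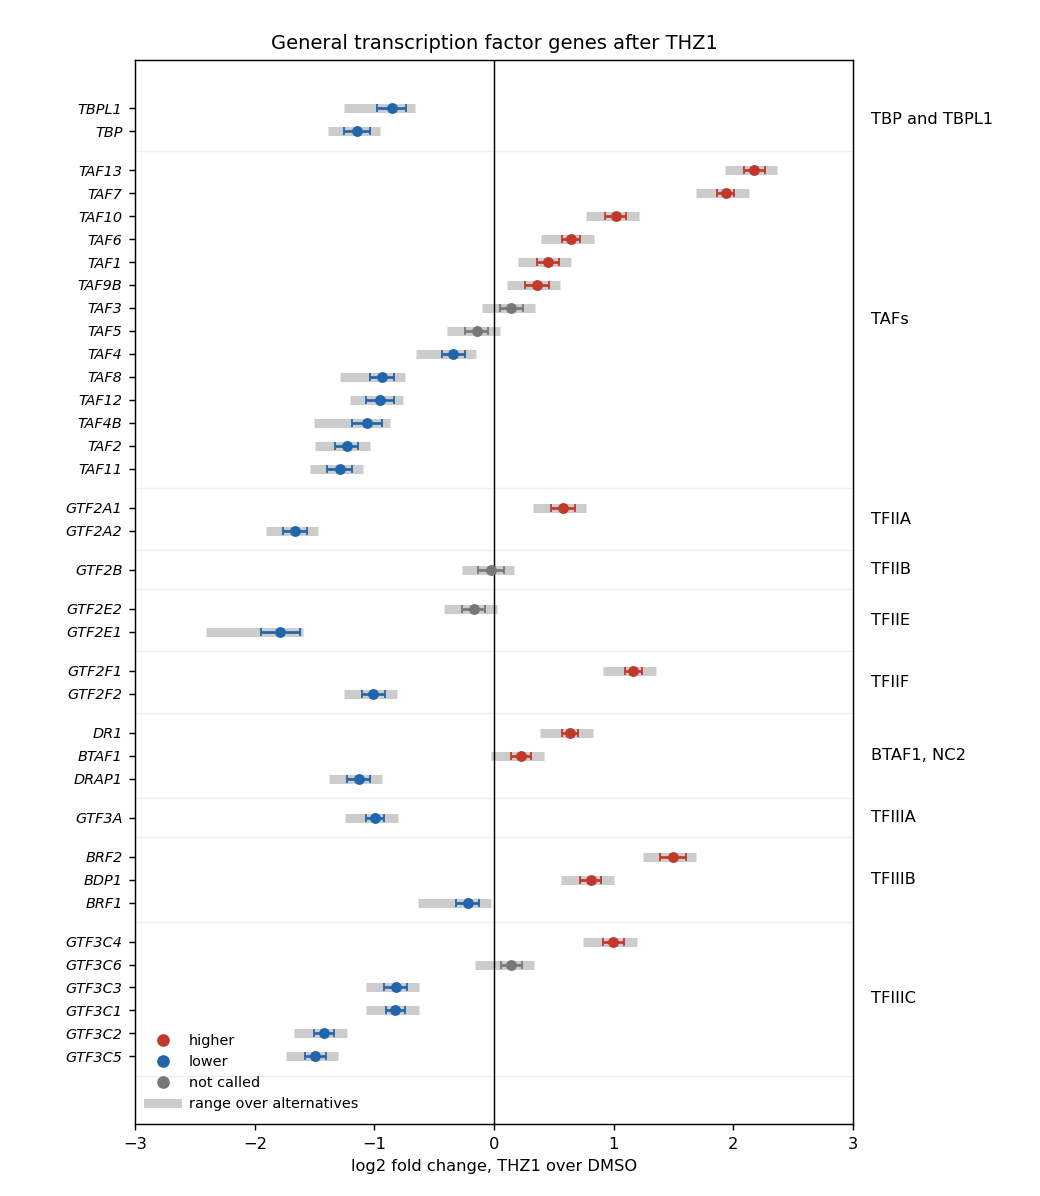
Log2 fold change of 36 general transcription factor genes, THZ1 over DMSO, grouped by complex; points are the edgeR estimates from 3 libraries per treatment, thin bars their SE, grey bars the range over the alternative settings, and colour the call. Estimates run from −1.79 for GTF2E1 to 2.18 for TAF13, and TFIIA, TFIIF and NC2 (DR1 and DRAP1) each hold 1 gene that rose and 1 that fell.

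The message of the TATA-binding protein fell after THZ1, and its protein was not measured. TBP (chr6:170863390-170881958), the saddle-shaped protein that bends promoter DNA and serves all the nuclear RNA polymerases, had 37.4, 40.1 and 39.7 CPM in the DMSO-treated libraries and 15.8, 17.3 and 19.9 CPM in the THZ1-treated libraries. Every THZ1-treated library lay below every DMSO-treated one. The log2 fold change was −1.14 ± 0.11 (SE, n = 3 per treatment, adjusted p = 4.88e-11).

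TBPL1, the TBP-related factor used at promoters without a TATA box, had 26.4, 26.3 and 27.7 CPM with DMSO and 14.1, 16.3 and 14.0 CPM with THZ1. It fell as well, by 0.86 ± 0.12 on the log2 scale (adjusted p = 1.02e-07), and its treatments did not overlap. Of its annotated exon bases, 56.6% lie across from SLC2A12 on the other strand, which had 12.7 counts on average with DMSO and 0.667 with THZ1. The strand setting of the counting is not given in the sources used here, so reads of such pairs cannot be told apart. Counts given for such neighbours here and below are raw and not scaled for depth, and the THZ1-treated libraries were shallower. The ratio of TBP to TBPL1 within a library was 0.54 ± 0.06 (SD, n = 3) with DMSO and 0.25 ± 0.22 with THZ1 on the log2 scale, a difference of −0.29 that the exact two-sided permutation test over the libraries did not call (p = 0.2 before and after adjustment over 3 paralog pairs). The values overlapped, at 0.50 to 0.61 and 0.08 to 0.51.

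The TAFs split evenly, as all genes did. Of 14 matched TAFs, 6 rose (42.9%, against 43.5% of all genes), 6 fell (42.9%, against 41.1%) and 2 were not called, with a median log2 fold change of 0.00. The treatments did not overlap for any of the 14, which was also so for 84.7% of all genes. TAF13, TAF7, TAF10, TAF6, TAF1 and TAF9B rose, and TAF11, TAF2, TAF4B, TAF12, TAF8 and TAF4 fell.

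The histone fold pair TAF11 and TAF13 separated furthest. TAF13 (chr1:109605118-109618634) had 23.7, 20.2 and 20.4 CPM with DMSO and 98.9, 97.0 and 95.5 CPM with THZ1, with the treatments far apart. Its log2 fold change of 2.18 ± 0.09 (adjusted p = 3.65e-20) was the highest of the 36 genes. TAF11 (chr6:34845239-34856969) had 52.1, 48.4 and 53.4 CPM with DMSO and 18.9, 21.5 and 22.5 CPM with THZ1. It fell by 1.29 ± 0.10 on the log2 scale (adjusted p = 4.15e-13), which is within the error of TAF2 (−1.23 ± 0.10). The log2 CPM ratio of TAF11 to TAF13 within a library went from 1.26 ± 0.13 (SD) to −2.22 ± 0.15, an 11.1-fold shift.

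TAF1 and TAF7 both rose, to different degrees. TAF1, the large scaffold of TFIID, had 56.4, 64.6 and 47.3 CPM with DMSO and 77.1, 76.8 and 76.3 CPM with THZ1. Its DMSO-treated libraries were spread more widely than its THZ1-treated ones, all of which were higher. The log2 fold change was 0.45 ± 0.09 (adjusted p = 4.34e-05), a call that was lost with library sizes alone (adjusted p = 0.0564) and in the limma fits of the deposited FPKM (adjusted p = 0.0606 to 0.0692). TAF7 (chr5:140639452-140700351), which binds TAF1 and restrains its activity, is encoded by a single exon in its canonical transcript. It had 109, 107 and 124 CPM with DMSO and 439, 440 and 422 CPM with THZ1, a 3.83-fold difference between treatments that were far apart. Its log2 fold change was 1.94 ± 0.07 (adjusted p = 2.02e-21).

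TAF4 and its paralog TAF4B, alternative central subunits of TFIID, both fell. TAF4 had 51.2, 48.0 and 46.8 CPM with DMSO and 39.7, 33.5 and 41.8 CPM with THZ1. Its decrease of 0.34 ± 0.10 on the log2 scale (adjusted p = 0.00157) was not called with upper quartile factors (adjusted p = 0.149). TAF4B, known from the germ line and from B cells, had 32.5, 31.2 and 28.1 CPM with DMSO and 13.7, 13.2 and 17.1 CPM with THZ1. It fell by 1.06 ± 0.12 on the log2 scale (adjusted p = 2.47e-09). In both genes every THZ1-treated library lay below the DMSO-treated ones. The log2 ratio of TAF4 to TAF4B rose by 0.72 between treatments that did not overlap, from 0.67 ± 0.06 (SD) to 1.39 ± 0.13, at p = 0.1 in the exact permutation test, the smallest value that 3 against 3 libraries can give, and 0.15 after adjustment over 3 paralog pairs.

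TAF9B, the X-linked paralog of TAF9, had 26.6, 28.4 and 26.8 CPM with DMSO and 34.7, 36.0 and 34.2 CPM with THZ1. All THZ1-treated libraries were higher, with a log2 fold change of 0.36 ± 0.10 (adjusted p = 0.00145) that was not called with library sizes alone (adjusted p = 0.305). TAF9 itself (chr5:68657853-68665840) lies within AK6 on the same strand and shares 508 of its 7566 exon bases with it. The AK6 row rose by 0.52 on the log2 scale (adjusted p = 6.7e-08) and is not attributed to TAF9, so the ratio of TAF9 to TAF9B could not be computed. Whether reads of these close paralogs were split by the counting was not tested.

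The 2 TAFs that were not called had treatments that did not overlap but lay close together. TAF3, which reads the histone mark of active promoters through its PHD finger, had 32.7, 32.0 and 32.8 CPM with DMSO and 37.7, 33.6 and 36.4 CPM with THZ1. Its log2 fold change was 0.15 ± 0.10 (adjusted p = 0.162) and turned to −0.10 with library sizes alone, whereas TAF3 was called higher with RLE factors, upper quartile factors and at least 10 counts in every library (adjusted p = 0.0428, 0.00199 and 0.0099). TAF5, the WD40 repeat scaffold of TFIID, had 37.0, 36.0 and 35.8 CPM with DMSO and 32.5, 32.7 and 33.3 CPM with THZ1. Its log2 fold change of −0.14 ± 0.10 (adjusted p = 0.162) turned to 0.05 with upper quartile factors, whereas TAF5 was called lower with library sizes alone (−0.39, adjusted p = 0.000501) and in the limma fits (adjusted p = 0.0108 to 0.0128).

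Among the other TAFs, TAF10 and TAF6 rose and TAF2, TAF12 and TAF8 fell. TAF10, a histone fold protein shared with the coactivator SAGA, rose by 1.02 ± 0.09 on the log2 scale (adjusted p = 2.61e-12), from 57.1 ± 6.3 CPM (SD, n = 3) to 115.7 ± 10.3. Of its exon bases, 40.8% lie across from ILK. In raw counts, not scaled for depth, ILK had 739 on average with DMSO and 770 with THZ1. TAF10 had 688 and 860 on the same raw scale, so these values do not show ILK as unchanged. How far those reads are shared was not tested. TAF6, which pairs with TAF9 in the core of TFIID, rose by 0.64 ± 0.07 (adjusted p = 2.07e-09), with 19.7% of its exon bases across from AP4M1. TAF2, which contacts the initiator element, fell by 1.23 ± 0.10 (adjusted p = 3.58e-13). TAF12, the histone fold partner of TAF4, fell by 0.95 ± 0.12 (adjusted p = 8e-09), and TAF8, the partner that carries TAF10 into the nucleus, fell by 0.94 ± 0.10 (adjusted p = 2.76e-10).

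Among the factors that join TFIID at the promoter, TFIIA and TFIIF each held 1 gene that rose and 1 that fell. In TFIIE, 1 gene fell and 1 was not called, and the single TFIIB gene was not called. Among all genes, 43.5% rose and 41.1% fell, and the share of other gene pairs with opposite calls was not computed. GTF2A1, the precursor of the large TFIIA subunits, had 46.6, 53.3 and 37.1 CPM with DMSO and 66.8, 66.3 and 71.1 CPM with THZ1. It rose by 0.58 ± 0.10 on the log2 scale (adjusted p = 3.73e-06), and its lowest THZ1-treated library was above its highest DMSO-treated one. GTF2A2 (chr15:59930261-59949740), the small TFIIA subunit, had 71.8, 64.3 and 78.1 CPM with DMSO and 22.1, 23.9 and 21.5 CPM with THZ1. It fell by 1.66 ± 0.10 (adjusted p = 4.07e-16) to less than the level of any DMSO-treated library. GTF2A1 was below GTF2A2 in CPM in all DMSO-treated libraries and above it in all THZ1-treated ones, a 4.76-fold shift of the ratio. CPM is not divided by length, but on the log2 FPKM scale, which is, the order also changed, from 4.31 against 5.99 with DMSO to 4.74 against 4.23 with THZ1.

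GTF2B encodes TFIIB, the single protein that bridges TBP and the polymerase. Its libraries held 36.6, 31.1 and 43.0 CPM with DMSO and 36.2, 36.7 and 36.0 CPM with THZ1. The treatments overlapped, with the THZ1-treated libraries inside the range of the DMSO-treated ones. The log2 fold change was −0.03 ± 0.11 (adjusted p = 0.825), of either sign across the alternatives, at 0.17 with upper quartile factors and 0.08 without DMSO replicate 3, and it was called lower with library sizes alone (−0.27, adjusted p = 0.0184).

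TFIIE showed the lowest value of the list. GTF2E1 (chr3:120461484-120501916), the alpha subunit that contacts TFIIH, had 20.5, 21.3 and 18.2 CPM with DMSO and 4.47, 7.06 and 5.88 CPM with THZ1. The THZ1-treated libraries were all well below the DMSO-treated ones, and the gene fell by 1.79 ± 0.16 on the log2 scale (adjusted p = 1.32e-11). RABL3, across from 4.69% of its exon bases, had 364 counts on average with DMSO and 92.7 with THZ1. GTF2E2, the beta subunit, had 43.1, 37.9 and 42.7 CPM with DMSO and 33.3, 39.7 and 36.9 CPM with THZ1. Its treatments overlapped and it was not called, with a log2 fold change of −0.17 ± 0.10 (adjusted p = 0.104) that turned to 0.02 with upper quartile factors. It was called lower without DMSO replicate 2 (−0.25, adjusted p = 0.0161) and without THZ1 replicate 2 (−0.24, adjusted p = 0.0478), and also with library sizes alone, without a filter and in limma with a mean FPKM of at least 1 (adjusted p = 0.000301, 0.0224 and 0.0498). The ratio of GTF2E1 to GTF2E2 was 3.11-fold lower with THZ1.

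TFIIF, which escorts the polymerase to the promoter, moved in both directions. GTF2F1 (chr19:6379583-6393992), its large subunit, had 130, 119 and 134 CPM with DMSO and 284, 281 and 293 CPM with THZ1. It rose by 1.16 ± 0.07 on the log2 scale (adjusted p = 3.64e-16). GTF2F2, the small subunit, had 57.5, 53.0 and 64.3 CPM with DMSO and 29.3, 29.6 and 27.9 CPM with THZ1. It fell by 1.01 ± 0.10 (adjusted p = 4.18e-11), and neither subunit had overlapping treatments. The ratio of GTF2F1 to GTF2F2 was 4.50-fold higher with THZ1.

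Among the regulators of TBP, DR1 and DRAP1 also moved in opposite directions. DR1 and DRAP1 form NC2, which holds TBP on DNA and blocks the entry of TFIIA and TFIIB. DR1 had 148, 153 and 146 CPM with DMSO and 228, 237 and 229 CPM with THZ1, and rose by 0.64 ± 0.07 on the log2 scale (adjusted p = 3.4e-10). DRAP1 had 100.6, 83.1 and 115 CPM with DMSO and 43.0, 45.4 and 48.0 CPM with THZ1, and fell by 1.13 ± 0.10 (adjusted p = 3.12e-12). The treatments did not overlap for either gene. BTAF1, the ATPase that strips TBP from DNA, had 96.8, 115 and 85.6 CPM with DMSO and 119, 115 and 114 CPM with THZ1, so that the treatments overlapped at DMSO replicate 2. It was called higher at 0.23 ± 0.09 (adjusted p = 0.0158), a value that turned to −0.03 with library sizes alone. Without DMSO replicate 1, DMSO replicate 3 or THZ1 replicate 1 the call was lost, at adjusted p = 0.088, 0.147 and 0.0674, as it was without a filter (0.13) and in the limma fits (0.329 to 0.347).

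**Figure D2:**
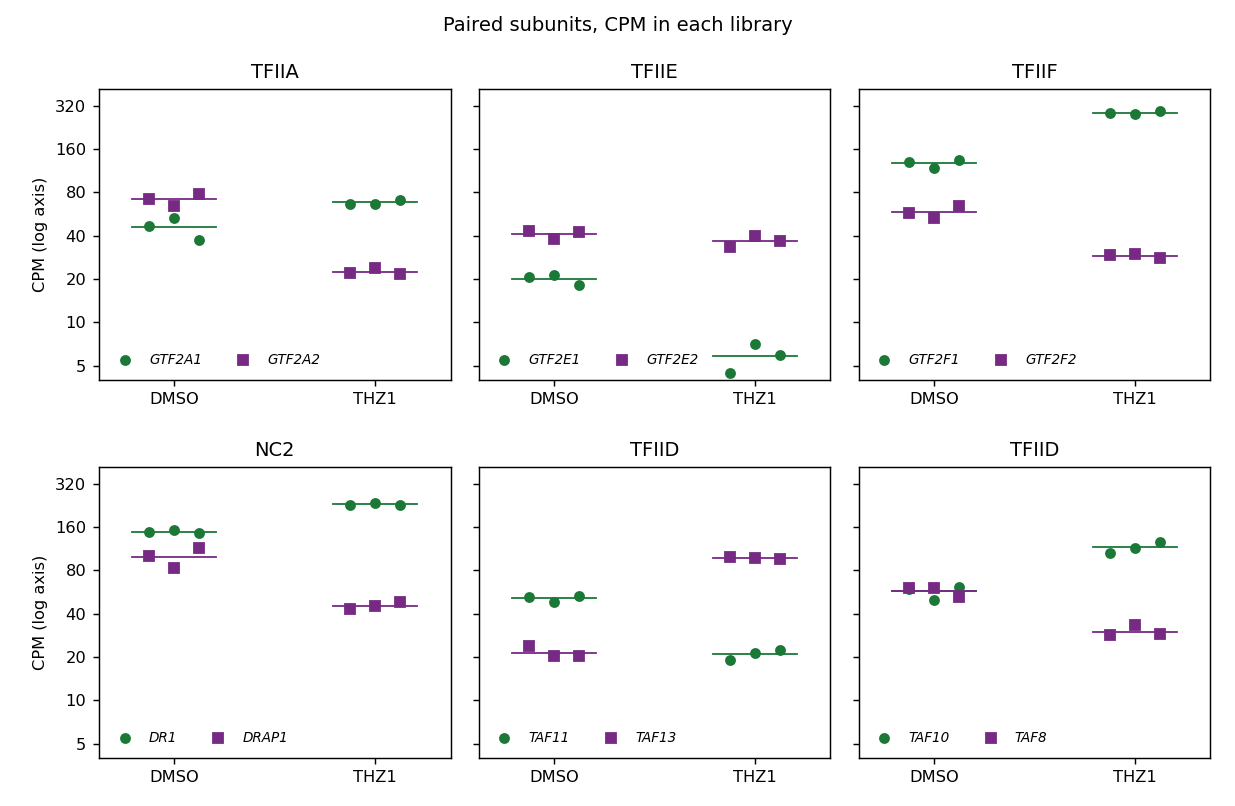
CPM (log axis) of 6 pairs of proteins that bind each other, in each of 3 DMSO-treated and 3 THZ1-treated libraries; points are libraries and lines the mean of each treatment. CPM is not divided by length, so the heights of different genes are not comparable, but the shift within each gene is. The 6 pairs were picked from 9 after the values were seen. In each pair shown except TFIIE, 1 gene is higher and its partner lower with THZ1. In TFIIE, GTF2E1 is lower while GTF2E2 overlaps. The pairs not shown did not split in this way: TAF4 and TAF12 both fell, TAF1 and TAF7 both rose, and TAF3, paired with TAF10, was not called.

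The ratios of 9 pairs of direct partners were set side by side. These pairs were picked from known structures after the values had been seen, so the ratios are a description with no test, and they do not depend on the scaling of the libraries. They are not corrected for length, so their change counts and not their size. The treatments did not overlap for any of the 9. The share of other gene pairs without overlap was not computed, and 84.7% of all single genes had none. The count is therefore not a trait of these partners. The shift was 11.1-fold for TAF11 and TAF13, 4.76-fold for the TFIIA pair, 4.50-fold for the TFIIF pair and 3.38-fold for the NC2 pair. The log2 ratio of TAF8 to TAF10 went from 0.01 to −1.94, or 3.88-fold, and that of TAF3, which also pairs with TAF10, from −0.81 to −1.69, or 1.84-fold. TAF1 to TAF7 shifted 2.78-fold, since TAF7 rose further. The smallest shift was that of TAF4 and TAF12, at 1.52-fold, where both partners fell.

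Among the 10 factors of RNA polymerase III, 3 rose (30.0%), 6 fell (60.0%) and 1 was not called. The background of all genes was 43.5% and 41.1%. The rises were in TFIIIB and in 1 subunit of TFIIIC, and the remaining subunits of TFIIIC fell or were not called. GTF3A encodes TFIIIA, the zinc finger protein dedicated to 5S rRNA genes. It had 187, 183 and 209 CPM with DMSO and 94.3, 95.5 and 100.0 CPM with THZ1, with all THZ1-treated libraries lower, and fell by 1.00 ± 0.07 on the log2 scale (adjusted p = 8.72e-14).

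TFIIIB is assembled from TBP, BDP1 and either BRF1, for tRNA and 5S genes, or BRF2, for U6 and related genes. BRF1 had 49.7, 43.4 and 49.6 CPM with DMSO and 41.6, 43.3 and 37.7 CPM with THZ1. Its treatments lay next to each other without overlap, and it was called lower by 0.22 ± 0.09 on the log2 scale (adjusted p = 0.0309). That call was lost without DMSO replicate 1 (adjusted p = 0.0972) or THZ1 replicate 3 (adjusted p = 0.132), and with RLE factors, upper quartile factors, DESeq2 or at least 10 counts in every library (adjusted p = 0.131, 0.795, 0.201 and 0.389). BRF2 had 14.1, 14.2 and 15.1 CPM with DMSO and 40.9, 38.9 and 42.8 CPM with THZ1, a 2.82-fold difference. It rose by 1.497 ± 0.108 (adjusted p = 4.59e-14), just under the threshold of 1.5. Of its exon bases, 60.0% lie across from ADGRA2, which had 157 counts on average with DMSO and 538 with THZ1 (BRF2 had 174 and 304). How far those reads are shared was not tested.

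The log2 CPM ratio of BRF1 to BRF2, which is not corrected for length, was lower with THZ1. It was 1.72 ± 0.10 (SD) with DMSO and 0.00 ± 0.17 with THZ1, and the treatments did not overlap. The exact permutation test gave p = 0.1, the smallest it can give, and 0.15 after adjustment, so the shift was not called. The part of ADGRA2 reads in the BRF2 counts was not tested. BDP1, the SANT domain subunit that completes TFIIIB, rose by 0.81 ± 0.09 on the log2 scale (adjusted p = 6.42e-10), from 55.0 ± 7.0 to 96.4 ± 5.5 CPM (SD, n = 3).

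TFIIIC binds the internal promoters of tRNA genes and is known to acetylate histones, an activity described for GTF3C4. GTF3C4 was the TFIIIC gene that rose, from 63.3, 77.6 and 56.0 CPM with DMSO to 126.5, 138 and 129 CPM with THZ1. All of its THZ1-treated libraries were higher, and the log2 fold change was 1.00 ± 0.09 (adjusted p = 8.2e-12). GTF3C5, a subunit of the module that binds the A box, had 106, 100.3 and 119 CPM with DMSO and 38.9, 38.6 and 37.7 CPM with THZ1. It fell by 1.495 ± 0.086 (adjusted p = 1.72e-16), again just short of the threshold and with no overlap.

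GTF3C2, a subunit of the module that binds the B box, fell by 1.42 ± 0.08 on the log2 scale (adjusted p = 2.58e-16). Its antisense neighbour GTF3C2-AS1 lies across from 19.5% of its exon bases and had 381 counts on average with DMSO and 72.7 with THZ1. GTF3C1, the largest subunit, and GTF3C3, the tetratricopeptide repeat subunit that recruits TFIIIB, fell by 0.82 ± 0.08 (adjusted p = 5.67e-11) and 0.82 ± 0.10 (adjusted p = 2.64e-09). GTF3C6, the smallest subunit, had 72.7, 69.8 and 84.6 CPM with DMSO and 91.8, 77.2 and 81.8 CPM with THZ1. Its treatments overlapped and it was not called, with a log2 fold change of 0.14 ± 0.09 (adjusted p = 0.117) that turned to −0.10 with library sizes alone. It was called higher without DMSO replicate 3 (0.21, adjusted p = 0.00925), and also with RLE factors, upper quartile factors, DESeq2 and at least 10 counts in every library (adjusted p = 0.0243, 0.000612, 0.0485 and 0.00543).

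**Figure D3:**
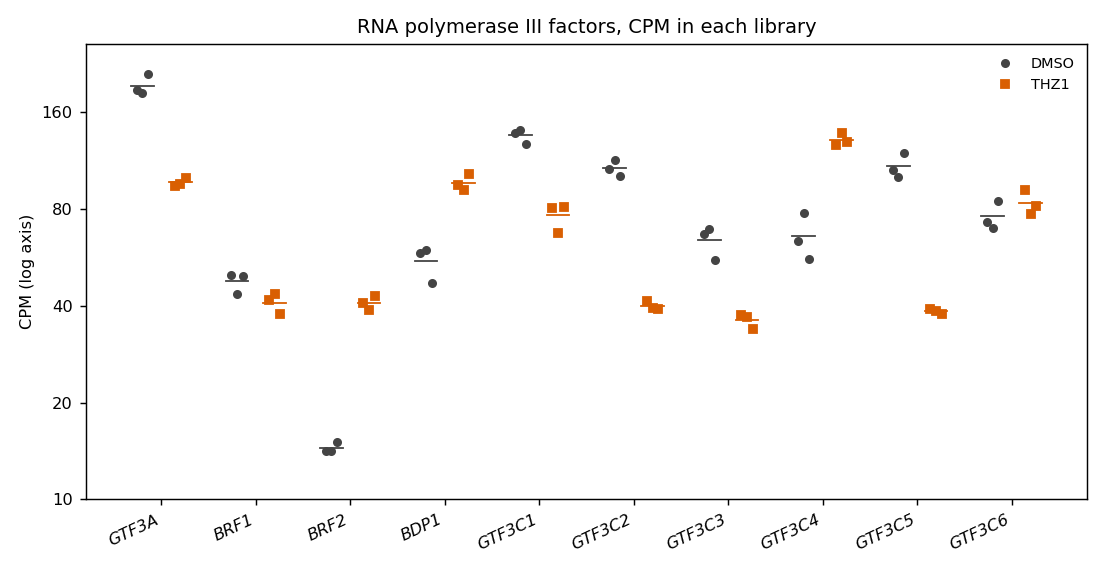
CPM (log axis) of the 10 RNA polymerase III factor genes in each of 3 DMSO-treated (circles) and 3 THZ1-treated (squares) libraries, with lines at the mean of each treatment. BRF2, BDP1 and GTF3C4 are higher with THZ1, GTF3A and GTF3C1, GTF3C2, GTF3C3 and GTF3C5 are lower, BRF1 is slightly lower without overlap, and GTF3C6 overlaps.

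Levels of different genes were compared on the deposited log2 FPKM scale, which divides by length and was read as log2(FPKM + 1). The length used for each gene is not given in the sources used here, and the order of genes depends on it. The SDs on this scale may not show the full spread between libraries, since sorted values of a treatment are nearly alike. With DMSO, GTF3C6 was the highest at 7.92 ± 0.07 (SD, n = 3), followed by GTF3A at 7.61 ± 0.04, DRAP1 at 7.39 ± 0.17, GTF2F1 at 7.00 ± 0.04 and TAF7 at 6.92 ± 0.06. BRF1 was the lowest at 3.54 ± 0.12, below BDP1 at 3.79 ± 0.14 and TAF4 at 3.93 ± 0.05. With THZ1, TAF7 was the highest at 8.61 ± 0.03, above GTF2F1 at 7.91 ± 0.02, GTF3C6 at 7.76 ± 0.11 and TAF13 at 7.42 ± 0.02. GTF2E1 was the lowest at 2.05 ± 0.30, below TAF4B at 2.74 ± 0.24.

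Neighbours in the middle of the order could not be separated, such as TBP at 5.58 ± 0.07, GTF2F2 at 5.51 ± 0.11 and GTF2E2 at 5.50 ± 0.09 with DMSO. The largest moves in the order were those of BRF2, from rank 31 to rank 11 of the 36, GTF2A2, from rank 8 to 25, and GTF3C2, from rank 10 to 26. TAF13 went from rank 14 to 4 and TAF11 from 7 to 17. On this scale, the value of BRF2 was above that of BRF1 under both treatments, at 4.03 ± 0.07 against 3.54 ± 0.12 with DMSO and 5.33 ± 0.07 against 2.96 ± 0.10 with THZ1. With DMSO, the log2 ratio of BRF1 to BRF2 was 1.72 in CPM and −0.52 in FPKM. Their canonical transcripts have 3671 and 2560 nt. The order of BRF1 and BRF2 with DMSO therefore depends on the length used, and which message was more abundant was not settled. The part of ADGRA2 reads in the rank and level of BRF2 was not tested.

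**Figure D4:**
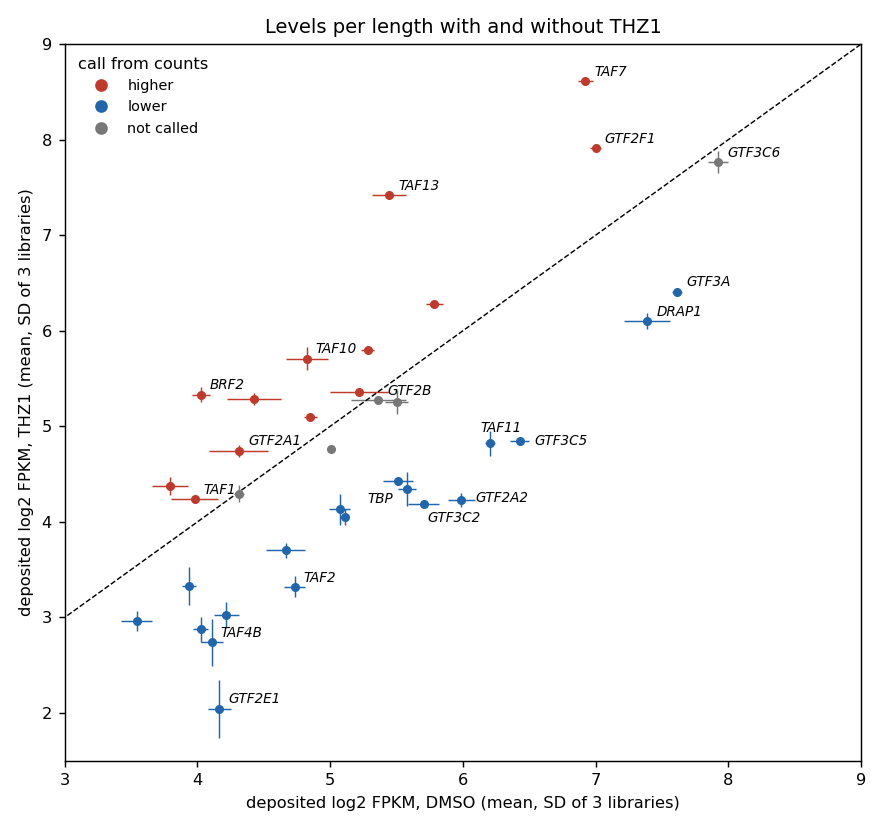
Deposited log2 FPKM of 36 general transcription factor genes with THZ1 against DMSO; points are means and bars the SD of 3 libraries, the dashed line marks equal values, and colour is the call from counts. TAF7, GTF2F1 and TAF13 lie at the top above the line, GTF2E1 lies at the bottom, and GTF3C6 is high under both treatments.

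The companions of these factors were read from lists of known members. Among 6 genes of RNA polymerase I initiation, which share TBP through the SL1 complex, 2 rose and 2 fell (33.3% each, against 43.5% and 41.1% of all genes) and 2 were not called. They ran from −0.97 for TAF1A, an SL1 subunit, to 0.96 for RRN3, which tethers the polymerase and has near-identical pseudogene copies that make its count uncertain. Of 7 genes of SNAPc, which recruits TBP to snRNA genes, and its activators, 4 rose (57.1%) and 3 fell (42.9%), read against the same shares of all genes, between −0.71 for SNAPC1 and 1.78 for ZNF143. MAF1, the repressor of RNA polymerase III, fell by 0.50 on the log2 scale (adjusted p = 2.3e-06).

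SAGA is a coactivator that shares TAF10 and other TAFs with TFIID. Of 16 genes of SAGA, 8 rose (50.0%, against 43.5% of all genes), 3 fell (18.8%, against 41.1%) and 5 were not called, from −0.88 for SUPT7L to 1.54 for TADA3. TFIIH, the complex of CDK7 itself, had 9 of 10 genes tested, of which 8 fell (88.9%, against 41.1% of all genes) and 1 was not called. GTF2H5, its smallest subunit, was the lowest at −1.14 (adjusted p = 2.02e-07), and ERCC2, a helicase, was the one not called, at 0.02 (adjusted p = 0.831). The paralogs known from the germ line, TBPL2, TAF1L, TAF7L and GTF2A1L, had too few counts to be tested, with at most 6 counts in any library. TAF1L and GTF2A1L were at 0 in every library, which allows up to 3 counts, or 0.415 CPM in the shallowest library, and is a limit of counting error only.

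Gene structure was set beside the fold changes as a description, since genes of the same libraries are not independent. Across the 36 genes, Spearman's rho of the log2 fold change with gene span was −0.10, beside −0.34 over 11893 other protein-coding genes. With the length of the canonical transcript it was 0.26, beside −0.14, and with the number of canonical exons −0.17, beside −0.20 over 11837 others. The genes spanned 2290 to 198135 bp with a median of 36820 bp. The median span was 23587 bp for those that rose and 37606 bp for those that fell.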

How the data were processed

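RNA-SEQ was measured in 3 DMSO-treated and 3 THZ1-treated libraries of NALM6 cells. The raw counts per gene were deposited by the authors, and the submitters' processing notes name cutadapt, STAR, HTSeq, RSEM and GRCh37. The annotation and strand setting are not given in the sources used here. A second deposited table holds log2 values of FPKM from RSEM for 16730 genes. It was expected on a linear scale, so the values were taken back to FPKM before another pseudocount was added, and it was read as log2(FPKM + 1), an offset the sources do not state. Sorted values of 1 treatment are nearly alike in it, and whether they were brought to a common distribution is not stated. The SDs and limma fits on FPKM may therefore not show the full spread between libraries. Its columns of the authors' p-values, FDR and fold changes were not used.

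Genes were filtered with filterByExpr (minimum count 10, minimum total 15), scaled by TMM and tested with edgeR's quasi-likelihood test, two-sided, with Benjamini-Hochberg adjustment. Standard errors were derived from the fold change and the F statistic. Paralog ratios of CPM were tested with exact permutation tests. The pipeline was tested on simulated counts. Coordinates are from GENCODE 44 on GRCh37, and promoters from RefSeq.

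The genes and lists were chosen with earlier results of these data known. Values in every library are given for the extremes of each complex, both genes of a paralog pair, TBP, TAF1, genes not called, genes with overlapping treatments and genes past 1.5 on the log2 scale. For companions, the extremes of each list tested are given by fold change only. Replicate numbers did not pair the libraries (correlations of deviations between −0.004 and 0.0206), and replicates differed by more than sampling noise (chi-square per gene 1.78 to 8.61).

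Results were recomputed under 16 alternatives: DESeq2, 3 other scalings (upper quartile or RLE factors, and unscaled library sizes), a filter of 10 counts in all libraries or none, the replicate number as a block, removal of 1 library at a time, and limma on FPKM (pseudocount 1 or 0.1, or mean of at least 1). Software was edgeR 4.0.16, limma 3.58.1 and DESeq2 1.42.0 under R 4.3.3, and pandas 2.3.3, scipy 1.17.1, numpy 2.4.6 and matplotlib 3.10.9 under Python 3.11.15. Protein sequences were not used here. Some results are not reported.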

Additional observations from a re-analysis of the deposited data

How the results depend on the processing

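Of the 36 genes, 26 kept their direction and call under all 16 alternatives, 10 of the 13 that rose and 16 of the 18 that fell. Over settings, 10 to 15 genes rose and 16 to 21 fell. The replicate block left 13 higher and 18 lower, with a median of −0.20, and changed no other call. Genes lower by at least 1.5 numbered 1 with upper quartile factors, 5 with library sizes alone, 4 without a filter, and 4, 5 and 4 in limma on FPKM with a pseudocount of 1, of 0.1 and a mean of at least 1. The median of the genes was −0.13 with RLE factors and in DESeq2, −0.002 with upper quartile factors, −0.44 with library sizes alone, −0.0624 with at least 10 counts in every library, −0.28 without a filter, −0.41, −0.45 and −0.41 in the 3 limma fits, and −0.28 to −0.18 with each library left out. Of the calls over all genes, 51.4% were higher, which became 57.2% with upper quartile factors and 44.2% with library sizes alone.

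Values that turned were those of TAF3 (−0.10 with library sizes alone, −0.0197, −0.0208 and −0.0197 in limma), TAF5 (0.05, upper quartile), GTF2B (0.0415 with RLE, 0.17 with upper quartile, 0.0412 in DESeq2, 0.11 with at least 10 counts, −0.16 to 0.0779 with a library left out), GTF2E2 (0.0226, upper quartile), BTAF1 (−0.0252, library sizes alone) and GTF3C6 (−0.10 with library sizes alone, −0.16, −0.1602 and −0.16 in limma). The cause was not tested. The paralog differences on FPKM were −0.016 for TBP and TBPL1, 0.85 for TAF4 and TAF4B and −1.99 for BRF1 and BRF2. With 3 libraries a side, no exact test could pass 0.05, and GTF2E1, at 34 to 51 counts with THZ1, has the widest error.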
